A study of Mus musculus with 12 samples.

Results

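The homeobox genes that MLL fusion proteins keep switched on were examined in MLL-AF9 leukemia cells grown in 3 kinds of host. The 9 genes, Hoxa3, Hoxa5, Hoxa6, Hoxa7, Hoxa9, Hoxa10, Hoxa11, Meis1 and Pbx3, were taken by name as known targets of MLL fusions, out of 55401 genes in the table. Levels are in TPM, transcripts of a gene per 1000000 transcripts, and all 9 averaged 1 TPM or more, as did 15026 genes that were tested. HOX proteins are transcription factors that bind DNA through the homeodomain, and in blood formation the posterior Hoxa genes are high in stem and progenitor cells and are shut off as cells mature. MLL fusion proteins such as MLL-AF9, which joins the N-terminal part of the histone methyltransferase MLL to AF9, a subunit of complexes that promote transcript elongation, hold the Hoxa cluster and Meis1 open. MEIS1 and PBX3 belong to the TALE class of homeodomain proteins, bind DNA together with HOXA9, and are needed for full leukemic activity.

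Mouse bone marrow progenitors had been transduced with MLL-AF9 that co-expresses GFP, and the resulting leukemia had been passed through mice more than 10 times before it was given to female WT C57BL/6, Rag2-/- or NSG mice. These hosts differ in their lymphocytes: WT animals have all of them, loss of Rag2 stops antigen receptor rearrangement and so removes mature T and B cells while NK cells stay, and in NSG animals NK cells are missing as well. The Rag2-/- animals are named as C57BL/6 like the WT, whereas NSG is a strain of its own. Strain and lymphocyte content therefore cannot be told apart in comparisons with NSG. GFP+ cells were collected from moribund animals, and poly(A) RNA was sequenced in 4 libraries per host, 12 in all. In the paper's survival experiment leukemia came earlier in NSG and progressed more slowly in Rag2-/- than in WT. Time in the animal and kind of host therefore cannot be told apart in any comparison. All libraries come from 1 serially passaged leukemia, so they do not cover the diversity of MLL-AF9 leukemias, and the transgene itself has no row in the table.

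The estimated depth was 8.0 to 21.4 per library in units of 1000000 read pairs, with a median of 8.46 in WT, 14.2 in Rag2-/- and 10.0 in NSG, and these estimates rest on the spacing of low values. All 12 markers of the labelled myeloid leukemia cell passed the filter, and in Rag2-/- against WT 2 of them were called, Mpo lower (145 against 553 TPM, limma adjusted p = 0.0189) and Cd33 higher (801 against 531 TPM, adjusted p = 0.0237). Of 11 T and NK cell markers, 10 were below 1 TPM on average and 2 were at 0 in every library. At these low levels Ncr1 was 0.108 to 0.531 TPM in Rag2-/- and at 0 in every WT and NSG library. Gzma was 0.624 to 2.39 TPM in Rag2-/-, 0 in WT and 0 to 1.67 in NSG. Klrb1c, Prf1, Cd4 and Cd3g also had their highest mean in Rag2-/-, each below 1 TPM. Nkg7, Cd3d and Cd8a went the other way, with lower means in Rag2-/- than in WT. The summed level per library was 125 to 233 TPM for B and plasma cell markers, 88.6 to 151 for macrophage markers, 103 to 180 for stromal and endothelial markers and 3.05 to 12.1 for erythroid markers. Ighm alone averaged 174 TPM among the B and plasma cell markers, and Pecam1 137 TPM among the stromal and endothelial ones. In these lists of 8, 4 and 5 markers respectively averaged under 1 TPM. The macrophage and erythroid sums were higher in every Rag2-/- library than in every WT library. In Rag2-/- against WT, the macrophage marker C1qc was called higher (4.07 against 1.12 TPM, limma adjusted p = 0.025). The B and plasma cell marker Igkc was called lower (0.0738 against 9.38 TPM, limma adjusted p = 0.0348). The summed level of 11 neutrophil markers was 210 to 337 TPM in WT, 685 to 2146 in Rag2-/- and 327 to 357 in NSG, and 10 of the 11 were called higher in Rag2-/- than in WT. The part of these markers in the differences given here was not tested, and a smaller share of leukemia cells and less RNA per cell cannot be told apart in bulk RNA.

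The 9 members share the homeobox, and a stretch within the code for the recognition helix, the part of the homeodomain that lies in the major groove, is shown because it separates the HOX proteins from their TALE partners. These 30 bases, taken from GENCODE M21 transcripts on GRCm38, are set out for 8 members, 5' to 3', with capitals at the bases that differ from Hoxa10.
Hoxa3: tggttCcagaaCcgcCgCatgaaGTACaag
Hoxa5: tggttCcaAaaCAgGaggatgaaGTGgaaA
Hoxa6: tggttCcagaatcgGCgCatgaaGTGgaaA
Hoxa7: tggttCcagaatcgGCgCatgaaGTGgaag
Hoxa10: tggtttcagaatcgcaggatgaaactgaag
Hoxa11: tggtttcagaaCAgAagAatgaaGGAAaaA
Meis1: tggtttATTaatGCcCggaGAaGaAtAGTg
Pbx3: tggtttGGCaaCAAACgAatCaGGTACaag
Hoxa7 differed from Hoxa10 at 7 of the 30 bases, Hoxa3 and Hoxa6 at 8, and Hoxa5 and Hoxa11 at 9. The TALE genes were farther away, at 13 for Meis1 and 15 for Pbx3, and their homeobox is 189 bases long against 180, as the TALE class has 3 more codons. Over the whole homeobox, identity between the 15 pairs of these Hoxa members ran from 52.8% to 88.9%, the highest being Hoxa6 and Hoxa7. Those paralogs shared at most 47 unbroken bases anywhere in their transcripts, and Hoxa5 and Hoxa6 shared at most 26. Read length was not given in the sources used here.

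The cluster lies on chromosome 6, Meis1 on chromosome 11 and Pbx3 on chromosome 2, and all 9 members are on the minus strand. Hoxa5, Hoxa6, Hoxa10 and Pbx3 share no exon base with another annotated gene. Hoxa3 shares 27.1% of its exon bases, Hoxa7 20.4% and Hoxa11 35%, mostly or wholly with antisense genes, and there the reads of both genes cannot be told apart because the strand setting was not given. Meis1 shares 18.3%, as 1029 bases with Gm37818 on the same strand (8.11 TPM) and 896 with the antisense gene Gm16140 (0.898 TPM), so its level is uncertain by the reads of both. Hoxa9 shares 1.52%, with Mir196b.

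Within the cluster, the signal was concentrated in 1 block from Hoxa5 to Hoxa10. On the anterior side, the means over 12 libraries were 11.8 TPM for Hoxa2, 22.9 for Hoxa3 and 12.5 for Hoxa4. The block followed, with 196 for Hoxa5, 167 for Hoxa6, 95.6 for Hoxa7, 213 for Hoxa9 and 126 for Hoxa10. Beyond it the level fell to 1.15 TPM for Hoxa11 and 0.0593 for Hoxa13, which was at 0 in 8 libraries. Hoxa10 was thus at 110 times the level of Hoxa11, the next gene along, and Hoxa5 at 15.7 times that of Hoxa4. The noncoding gene Hottip beyond Hoxa13 was at 0 in 11 libraries, and Evx1, the homeobox gene after it, at 0 in all 12.

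**Figure D1:**
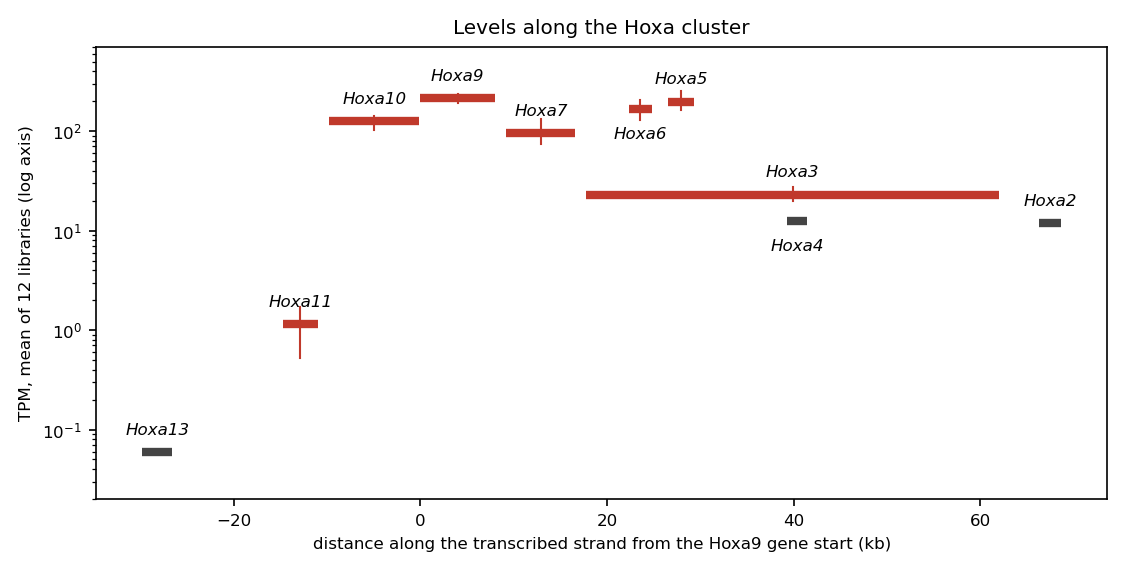
Mean TPM over 12 libraries (log axis) of 10 Hoxa genes against distance from the Hoxa9 start in kb, with each bar as long as its gene and, for members, a thin line from the lowest to the highest library. Members are in red and the other Hoxa genes in grey, and the Hoxa5 to Hoxa10 block stands between 95.6 and 213 TPM while Hoxa11 is at 1.15.

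The other 3 clusters were near silent beside it. The 11 Hoxa genes summed to 847 TPM, the 10 Hoxb genes to 15.1, the 9 Hoxc genes to 0.271 and the 9 Hoxd genes to 0.128. Only Hoxb4 and Hoxb13, at 6.49 and 8.52 TPM, reached 1 TPM among the 28 Hoxb, Hoxc and Hoxd genes, and neither was called in any comparison.

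The order of the levels was the same in each host by the mean: Hoxa9, Hoxa5, Pbx3, Hoxa6, Hoxa10, Hoxa7, Meis1, Hoxa3 and Hoxa11. This order, like every comparison of levels between genes here, rests on the gene lengths behind the TPM, which were not given. From Hoxa7 down, the ranges of neighbours did not overlap in any host. The ranges of Hoxa5 and Pbx3, and those of Pbx3 and Hoxa6, overlapped in every host, so their order was within the spread between libraries. Hoxa9 was the highest member in 10 of 12 libraries, with Hoxa5 ahead in Rag2-/- replicate 2 and Pbx3 in Rag2-/- replicate 4. The 7 Hoxa members together gave 781 ± 30.3 TPM in WT, 879 ± 90.4 in Rag2-/- and 808 ± 55.2 in NSG (mean ± SD, n = 4 each, here and in what follows), with ranges that overlap. Hoxa9 made up 26.7% of that sum in WT, 25.5% in Rag2-/- and 25.8% in NSG.

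None of the 9 members was called different between any 2 hosts, where a call needed a limma p adjusted over all 15026 genes under 0.05 and a log2 difference beyond 0.5. The background was 1.47% of genes called in Rag2-/- against WT (221 genes, 172 of them higher), 0.213% in Rag2-/- against NSG (32 genes) and 0% in NSG against WT, where 1377 genes (9.16%) had an unadjusted p under 0.05. A moderated F test over the 3 hosts, without a limit on size, called 1.1% of genes and no member. At an unadjusted p under 0.05, 3 members were higher in Rag2-/- than in WT, against 12.3% of all genes higher at that level, and 1 was higher than in NSG, against 7.72%. The F test gave 3 members at that level, against 17.9% of genes. With an adjusted p under 0.05 and no limit on the size, no member was called either, against 2.8%, 0.26% and 0% of genes in the 3 comparisons.

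The intervals show which sizes of difference the data allow. The 95% interval of the difference in log2(TPM + 1) lay within 1 either way for all 9 members in all 3 comparisons, as for 84.4% of genes in Rag2-/- against WT, 86.2% in Rag2-/- against NSG and 86.6% in NSG against WT. Within 0.5 lay 7, 8 and 8 members in the same order, against 56.4%, 61.5% and 61.9% of genes. The exceptions were Hoxa11 in each comparison and Hoxa5 in Rag2-/- against WT, whose upper bound was 0.51. For Hoxa11, at about the level of the pseudocount, such an interval allows a larger fold in TPM than it does for the other members. The differences leaned upward in Rag2-/-: 8 of 9 were positive against WT (54.5% of all genes) and 8 of 9 against NSG (53.4%), with 4 of 9 positive in NSG against WT (51.5%). These 2 Rag2-/- comparisons share the same 4 libraries.

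**Figure D2:**
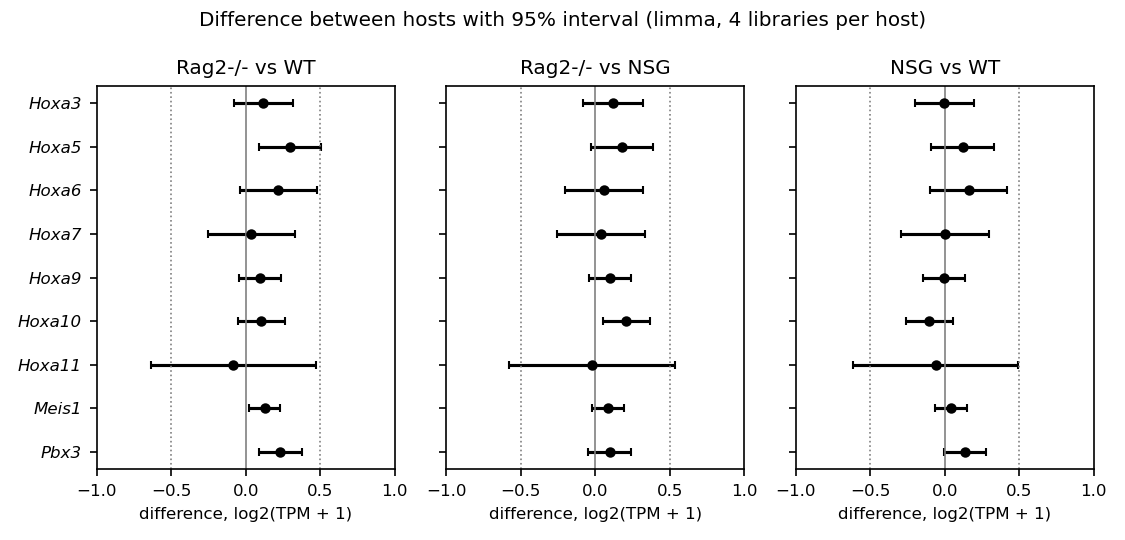
Difference between hosts in log2(TPM + 1) for each member, as the limma estimate with its 95% interval (4 libraries per host), in 3 panels for the 3 comparisons. Dotted lines mark 0.5 either way, and only Hoxa11 and, in Rag2-/- against WT, Hoxa5 cross them.

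Among the genes at the anterior side of the block, Hoxa3 was low and even. Hoxa3, which patterns the pharyngeal arches in the embryo, was 22.3 ± 2.17 TPM in WT, 24.3 ± 2.83 in Rag2-/- and 22.2 ± 0.866 in NSG, and its 3 ranges overlapped. Its log2 difference was 0.12 (SE 0.092, adjusted p = 0.502) in Rag2-/- against WT.

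Hoxa5 and Hoxa6 were both highest in Rag2-/- replicates 2 and 3. Hoxa5, a regulator of axial patterning and of myeloid against erythroid choice, read 189, 162, 173 and 183 TPM in the 4 WT libraries, 217, 253, 233 and 175 in Rag2-/-, and 187, 208, 186 and 188 in NSG. Thus 3 of the 4 Rag2-/- libraries exceeded every WT library and replicate 4 fell among them, and the log2 difference was 0.30 (SE 0.097, adjusted p = 0.108). Without Rag2-/- replicate 4 it was 0.40 with an adjusted p = 0.0163, still under the limit of 0.5, so that library decides which side of the p threshold Hoxa5 lies on. Hoxa6, its neighbour, read 158, 130, 158 and 165 TPM in WT, 170, 207, 198 and 141 in Rag2-/- and 163, 197, 161 and 161 in NSG. The groups overlapped, with a log2 difference of 0.22 (SE 0.12, adjusted p = 0.321) between Rag2-/- and WT.

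**Figure D3:**
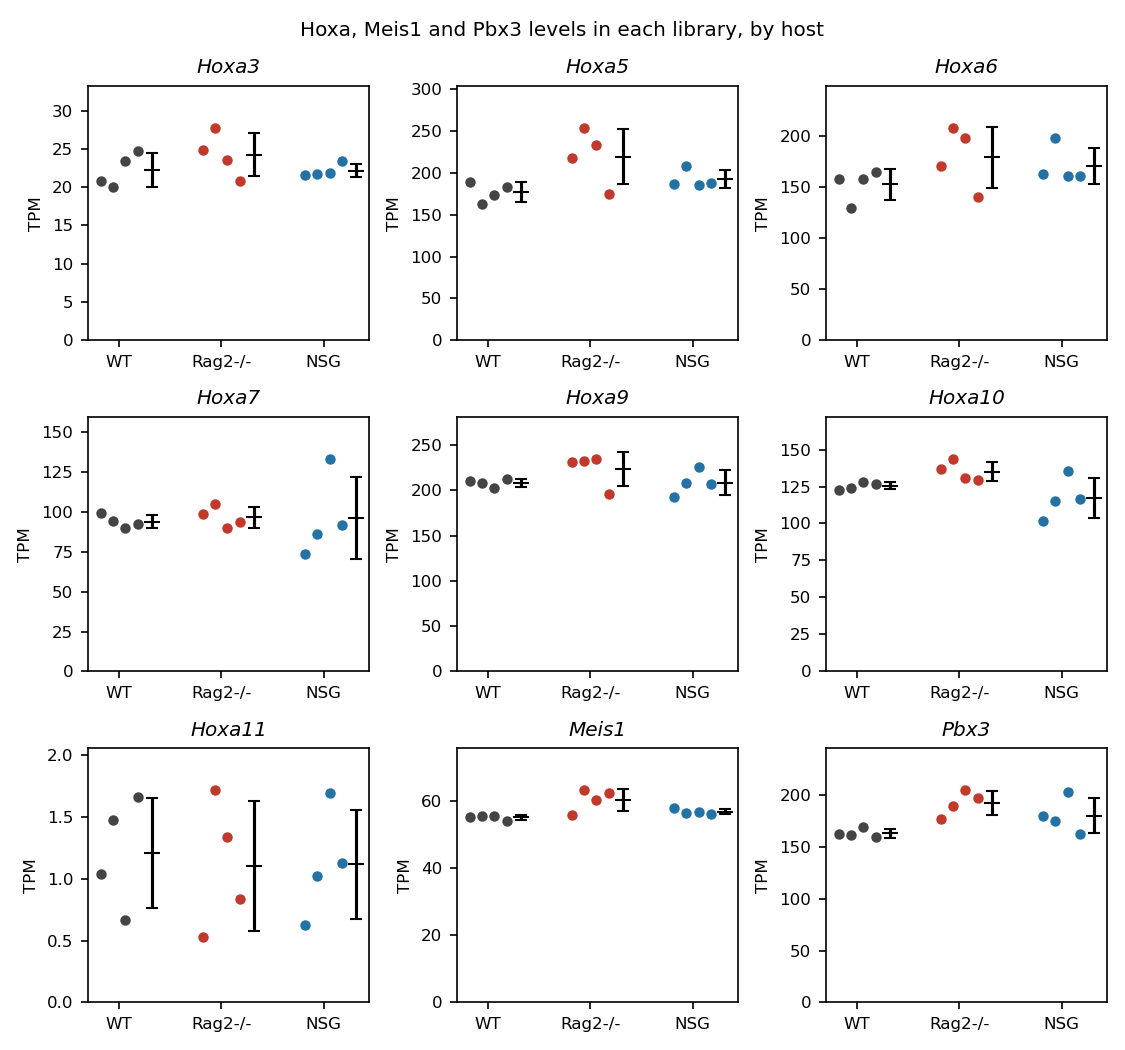
TPM of each member in each library (points, 4 per host, axis from 0) with the mean and SD beside them, for WT, Rag2-/- and NSG. Hoxa10, Meis1 and Pbx3 have every Rag2-/- library above every WT library, and the other members overlap.

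Hoxa7 had close means in all hosts and its widest spread in NSG. The gene, also a direct MLL target, was 94.0 ± 4.02 TPM in WT and 96.7 ± 6.52 in Rag2-/-, whereas the 4 NSG libraries read 73.7, 86.4, 133 and 91.5, or 96.1 ± 25.6. The lowest and the highest of all 12 values were NSG replicates 1 and 3, and the log2 difference between NSG and WT was -0.00092 (SE 0.14, adjusted p = 0.999).

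Hoxa9, the member most tied to MLL-rearranged leukemia, had nearly equal means in WT and NSG. It read 210, 208, 202 and 213 TPM in WT, 232, 233, 234 and 196 in Rag2-/- and 192, 209, 226 and 207 in NSG. The NSG and WT means were both 208, and the Rag2-/- mean was 224 ± 18.4, since 3 of its libraries stood above every WT library and the fourth below all of them. The log2 difference was 0.10 (SE 0.065, adjusted p = 0.416) against WT, with a 95% interval from -0.04 to 0.24. The level rests on 2719 to 6579 estimated read pairs, so counting alone would give a relative error of 1.23% to 1.92% a library.

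Hoxa10, which restrains myeloid maturation, was 125 ± 2.44 TPM in WT and 135 ± 6.55 in Rag2-/-, with every Rag2-/- library (129 to 143) above every WT library (123 to 128). Such a gap was seen in the same direction for 10.2% of all genes, and 3 members showed it, namely Hoxa10, Meis1 and Pbx3. The log2 difference was 0.10 (SE 0.072, adjusted p = 0.447). The NSG libraries were 102, 115, 135 and 116 TPM, giving a log2 difference of 0.21 (adjusted p = 0.239) between Rag2-/- and NSG, and the adjusted p was 0.0499 when NSG replicate 3 was left out.

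Hoxa11, active in limb and kidney, was barely detected, at 0.526 to 1.72 TPM. This corresponds to 4 to 12 estimated read pairs per library, a counting error of at least 28.3%, so small differences between hosts were not detectable at this depth. Its difference of -0.08 (SE 0.26) in Rag2-/- against WT has an interval from -0.64 to 0.47.

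Meis1, the TALE factor that HOXA9 needs to induce rapid leukemia, varied least. It read 55.4, 55.6, 55.8 and 54.2 TPM in WT, 55.9, 63.3, 60.5 and 62.5 in Rag2-/- and 58.0, 56.7, 56.8 and 56.2 in NSG. All 4 NSG libraries lay above all 4 WT libraries, a pattern that 2.21% of genes shared, yet by a log2 difference of only 0.04 (SE 0.049, adjusted p = 0.842). Against WT, the Rag2-/- difference was 0.13 (SE 0.049, adjusted p = 0.160). The lowest Rag2-/- library exceeded the highest WT library only by 55.9 against 55.8.

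Pbx3, the partner that stabilises HOXA9 on DNA, had the smallest adjusted p of the members. It was 162, 161, 169 and 159 TPM in WT, 177, 190, 204 and 197 in Rag2-/- and 180, 175, 202 and 162 in NSG. Rag2-/- and WT did not overlap, while NSG spanned both. The log2 difference was 0.23 (SE 0.066, adjusted p = 0.0746) in Rag2-/- against WT, 0.10 (adjusted p = 0.591) against NSG, and 0.14 (adjusted p = 0.560) in NSG against WT. It was past the p threshold, though not the size limit, in 2 alternatives: with the 8 libraries alone (adjusted p = 0.0297) and without NSG replicate 3 (adjusted p = 0.0316).

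Of 4 ratios between members given here, 3 overlapped between all hosts. The ratio of Hoxa9 to Meis1, in TPM, was 3.77 ± 0.124 in WT, 3.71 ± 0.425 in Rag2-/- and 3.66 ± 0.271 in NSG. That of Pbx3 to Meis1 was 2.95 ± 0.0571, 3.17 ± 0.156 and 3.16 ± 0.286 in the same order. The ratio of Hoxa10 to Hoxa9 was 0.602 ± 0.0208, 0.606 ± 0.0424 and 0.561 ± 0.0288. The ratio of Hoxa6 to Hoxa5 was 0.862 ± 0.0539, 0.815 ± 0.0278 and 0.886 ± 0.0416, and its Rag2-/- libraries (0.785 to 0.851) all lay below its NSG libraries (0.859 to 0.948), a gap that was not tested.

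Stability over all 12 libraries differed among the members. On the log2(TPM + 1) scale the SD was 0.071 for Meis1, 0.096 for Hoxa9, 0.13 for Hoxa3, Hoxa10 and Pbx3, 0.19 for Hoxa5, 0.20 for Hoxa6 and Hoxa7 and 0.30 for Hoxa11. The median over all genes tested was 0.19, and over the 3465 genes with a mean of 50 to 250 TPM, where 7 members lie, it was 0.12. Of those 7, Meis1 and Hoxa9 were below the band's median, Meis1 at percentile 7.24 and Hoxa9 at 27.2, whereas Hoxa5, Hoxa6 and Hoxa7 stood at percentiles 82.1, 84.1 and 84.1. Hoxa10 and Pbx3 stood just above the median, at percentiles 54.9 and 55.6. This SD holds the scatter within hosts as well as differences between them. The range of the host means ordered the members otherwise. In the same band Hoxa7 was at percentile 6.35 of that range, Hoxa9 at 31.5 and Meis1 at 44.2. Hoxa10 was at 73.3, Hoxa6 at 75.8, Pbx3 at 78.5 and Hoxa5 at 88.1.

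**Figure D4:**
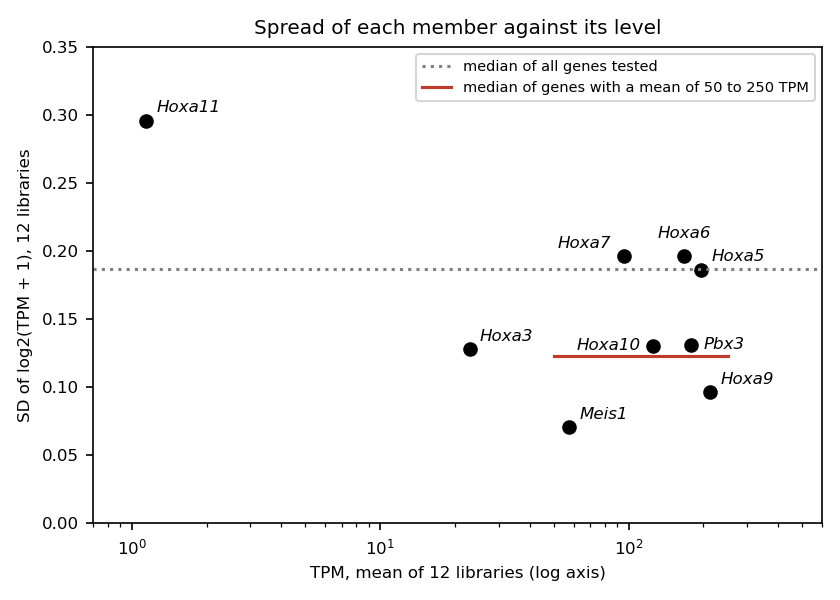
SD of log2(TPM + 1) over the 12 libraries against mean TPM (log axis), 1 point per member. The dotted line is the median of all 15026 genes tested (0.19) and the red line that of 3465 genes between 50 and 250 TPM (0.12), and only Meis1 and Hoxa9 lie below the red line among members in that band.

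Hoxa5 and Hoxa6 rose and fell together from library to library. Over the 12 libraries Pearson's r was 0.91 (permutation p = 5e-05, adjusted 0.0018 over 36 pairs of members) and Spearman's rho 0.83 (permutation p = 0.00159, adjusted 0.0286). Without Rag2-/- replicates 2 and 3, the libraries farthest from the median of Hoxa5, r was 0.83. With the mean of each host removed r was 0.94, and within hosts it was 0.83 in WT, 0.98 in Rag2-/- and 0.996 in NSG, each over 4 libraries and given as a description. It was the only pair of 36 with an adjusted p under 0.05 by Pearson's r. By Spearman's rho Hoxa3 and Hoxa6 also passed (rho = 0.78, permutation p = 0.00399, adjusted 0.0479). Their r was 0.68 (permutation p = 0.0169, adjusted 0.0868). Meis1 and Pbx3 had r = 0.75 (permutation p = 0.0055, adjusted 0.0599) and rho = 0.85 (permutation p = 0.00097, adjusted 0.0286), but r was 0.43 with host means removed. Hoxa9 and Meis1, the functional pair, gave r = 0.17 (permutation p = 0.584, adjusted 0.778) and rho = 0.091 (permutation p = 0.785, adjusted 0.893). Their r was -0.49 without the 2 libraries farthest from the median of Hoxa9. Within hosts it was -0.82, -0.36 and -0.60 in WT, Rag2-/- and NSG.

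**Figure D5:**
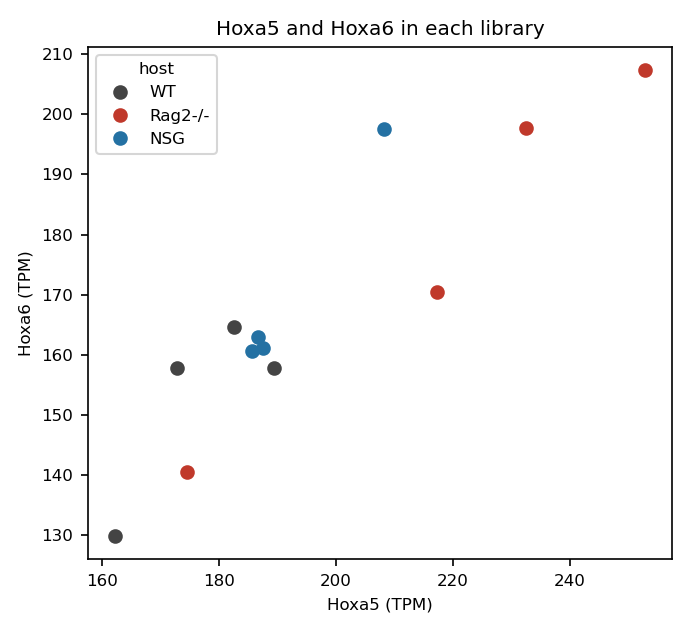
Hoxa6 against Hoxa5 in TPM, 1 point per library, coloured by host. The points rise together, from WT replicate 2 (162 and 130 TPM) to Rag2-/- replicate 2 (253 and 207 TPM).

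The 250 bases before the RefSeq starts of Hoxa5 and Hoxa6 are shown because these genes move together, and those of Hoxa9 because it is the highest member (GRCm38.p6). Capitals mark a match to the CCAAT box, searched on both strands and here on the opposite one in Hoxa5 and Hoxa6, and the Hoxa9 window has none.
Hoxa5, chr6:52204588-52204837, minus strand: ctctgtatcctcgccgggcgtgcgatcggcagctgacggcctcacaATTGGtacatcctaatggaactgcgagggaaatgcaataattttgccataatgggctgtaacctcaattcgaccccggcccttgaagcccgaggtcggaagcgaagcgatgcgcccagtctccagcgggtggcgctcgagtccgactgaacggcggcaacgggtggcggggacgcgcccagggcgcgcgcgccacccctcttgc
Hoxa6, chr6:52208673-52208922, minus strand: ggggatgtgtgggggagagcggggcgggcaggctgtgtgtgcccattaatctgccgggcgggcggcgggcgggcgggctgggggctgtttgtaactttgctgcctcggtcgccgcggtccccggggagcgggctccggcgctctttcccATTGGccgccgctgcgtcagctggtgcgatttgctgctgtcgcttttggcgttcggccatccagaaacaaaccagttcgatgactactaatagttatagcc
Hoxa9, chr6:52227371-52227620, minus strand: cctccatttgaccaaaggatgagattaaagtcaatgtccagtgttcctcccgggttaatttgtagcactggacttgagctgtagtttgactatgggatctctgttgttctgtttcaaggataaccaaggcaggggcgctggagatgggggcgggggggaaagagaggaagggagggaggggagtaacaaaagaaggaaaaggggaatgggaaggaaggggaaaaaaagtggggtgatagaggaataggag
The Hoxa5 and Hoxa6 windows each hold 1 CCAAT box, as 33.8% of the 32851 windows in the table do, and 28 and 24 CpG dinucleotides against a median of 6. The Hoxa9 window has 3 CpG, and 49.6% G and C against 63.6% in Hoxa5 and 65.2% in Hoxa6. The HOX and PBX composite motif TGATTNAT, searched on both strands, was in 2.82% of all windows and in none of the 9 windows of the 8 members listed, and the MEIS motif TGACAG was in 15.9% of all windows and in 1 member window, that of Hoxa3. Hoxa10 has 2 starts in the table, and Pbx3 was not matched.

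The genes whose levels followed Hoxa9 most closely over the 12 libraries were Slc25a29, a mitochondrial amino acid carrier (r = 0.91), Dusp3 (0.88), Ier5 (0.88), Abtb2 (0.88) and Il1r2, a decoy receptor for interleukin-1 (0.87). For Meis1 they were Ryr2, a calcium release channel (r = 0.92), Ubap1 (0.88), Cited2 (0.88), Akap7 (0.87) and Hdgfl3 (0.87). These are the top ranks among all genes tested, over libraries that share a host, and carry no test.

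Other genes of the pathway were called only among reported targets. Of the 10 other coding and noncoding genes listed for the cluster 4 were tested and none was called, Hoxa2 being at 13.6 ± 1.70 TPM in WT and 10.6 ± 1.76 in Rag2-/-, and Hoxa4 at 11.4 ± 1.65 and 14.0 ± 2.60. The noncoding gene Hoxaas3 averaged 13.0 TPM over the 12 libraries. Of 9 further TALE genes 4 were tested, with Pbx2 at 57.6 TPM, Pknox1 at 39.4 and Tgif1 at 19.0, and none was called. Meis2, a paralog of Meis1, averaged 0.0402 TPM. Of 29 genes of MLL complexes and chromatin regulators of the cluster 24 were tested and none was called in any comparison, led by Suz12 of the Polycomb complex (200 TPM) and the MLL complex subunits Wdr5 (146) and Dpy30 (137). Kmt2a, which encodes MLL, was at 45.0 TPM, and Mllt3, which encodes AF9, at 0.456 TPM.

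Of 28 reported targets of HOXA9 and MEIS1, 23 were tested and 2 were called, both in Rag2-/- against WT, where 1.47% of all genes were called. Id2, an inhibitor of helix-loop-helix factors, was higher in Rag2-/- at 31.8 ± 5.13 TPM against 19.6 ± 1.85 (log2 difference 0.66, SE 0.16, adjusted p = 0.0450). Sox4, a progenitor transcription factor, was lower at 53.5 ± 17.4 TPM against 105 ± 12.9 (log2 difference -1.01, SE 0.22, adjusted p = 0.0342). Their Rag2-/- and WT libraries did not overlap, but the calls were lost in 13 and 10 of 22 alternatives respectively, with adjusted p up to 0.143 and 0.111. The most abundant targets, Lmo2 (867 TPM), Cdk6 (333) and Cebpa (251), were not called. In Rag2-/- against WT the median log2 difference of the 23 was 0.02, as over all genes. Without regard to sign the median was 0.19, against 0.15 over all genes. At an unadjusted limma p under 0.05, 4 targets were higher and 5 lower, against 20.9% of all genes in either direction. The targets were not tested as a set.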

How the data were processed

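RNA from sorted GFP+ MLL-AF9 cells of female mice was sequenced in 12 libraries, 4 per host. Per the methods, the authors aligned paired-end reads to mm10 with HISAT2 on Galaxy, took gene counts and calculated TPM from them, and the deposited values are those TPM, unfiltered. The counting tool, annotation, gene lengths and strand setting are not given in the sources used here.

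Here log2(TPM + 1) was fitted for genes averaging 1 TPM or more, with the 3 hosts together, with limma 3.58.1 in R 4.3.3 (eBayes with a trend), and p-values were adjusted by the Benjamini-Hochberg method over all 15026 genes. Genes with an adjusted p under 0.05 and a log2 difference beyond 0.5 were called. A fold change on this scale understates that of low genes. Libraries of a host are labelled biological replicates. The mouse behind each is not named, and p-values measure the spread between these libraries. Depth was estimated from TPM times GENCODE M21 exon length: 98.9% to 99.2% of values under 20 fell within 0.05 of a multiple of 0.5 steps, 1 step being taken as 1 read pair, and intervals and errors from it cover counting only. Same-numbered libraries did not deviate together (r from -0.091 to 0.032). Correlations used 100000 permutations. The fit was tested on simulated data. Python 3.11.15, pandas 2.3.3 and scipy 1.17.1 were used besides.

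The 9 members and all gene lists were chosen with earlier results of these data known. Genes named are the members and the 5 genes most correlated with Hoxa9 and with Meis1. From each list other than the cell type markers, called genes and up to 3 tested genes with the highest level are named. From the cell type markers, called genes outside the neutrophil list are named. Kmt2a, Mllt3, Meis2, Hoxa13, Hottip, Evx1, Ncr1, Gzma, Nkg7, Cd3d and Cd8a were added after their values were seen. So were Klrb1c, Prf1, Cd4, Cd3g, Ighm and Pecam1.

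Alternatives were another pseudocount (0.1), other filters, quantile and median-ratio scaling, eBayes without a trend, the 8 libraries of a comparison alone, a block for the replicate number, calls without a size limit, and leaving out each library. Voom on the estimated read pairs, and a split of the libraries that the labels do not give (Rag2-/- replicates 3 and 4 and NSG replicates 1 and 2 against the rest) as a factor, were chosen after seeing the data.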

Additional observations from a re-analysis of the deposited data

Results flagged for a closer look

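Of 30 sets of 4 libraries (each member and the Hoxa sum in each host), 4 held a library farther from the others than Dixon's 95% limit for the gap to the nearest library divided by the range, where 1.5 would be reached by chance. Hoxa5 in NSG replicate 2, at 208 TPM, was the highest of its host with a gap of 0.915 of the range, and Hoxa6 in the same library, at 197 TPM, with 0.937. Hoxa3 in NSG replicate 4, at 23.5 TPM, gave 0.908. Hoxa9 in Rag2-/- replicate 4, at 196 TPM, was the lowest of its host with 0.932.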

How the results depend on the processing

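Over 23 alternative settings, no member was called in any of the 3 comparisons. The settings included the fit with the replicate number as a block (0 called in each) and the main fit without a limit on the difference. Had that limit been dropped in the other settings too, Hoxa5, Hoxa10 and Pbx3 would have passed in those named above (limma adjusted p from 0.0163 to 0.0499). The F test over the 3 hosts gave 0 to 1 members when a library was left out, Hoxa5 being called without Rag2-/- replicate 4, and 0 under its other alternatives. Of 27 log2 differences of members, 18 kept their sign throughout, and the other 9 changed it only at values within 0.152 of 0. With a library left out these 9 ran from -0.00015 to 0.0736 (Hoxa7) and -0.217 to 0.0599 (Hoxa11) in Rag2-/- against WT, from -0.0165 to 0.169 (Hoxa6), -0.0750 to 0.206 (Hoxa7) and -0.156 to 0.121 (Hoxa11) against NSG, and from -0.0483 to 0.0481 (Hoxa3), -0.167 to 0.114 (Hoxa7), -0.0414 to 0.0360 (Hoxa9) and -0.188 to 0.0578 (Hoxa11) in NSG against WT. In NSG against WT, quantile normalization gave 0.0044 (Hoxa7) and 0.0078 (Hoxa9), the further split 0.0704 (Hoxa3), 0.152 (Hoxa7), 0.0542 (Hoxa9) and 0.0322 (Hoxa11), and voom 0.0110 (Hoxa3), 0.0113 (Hoxa7) and 0.0108 (Hoxa9). The further split gave 0.0103 for Hoxa11 in Rag2-/- against WT, and voom -0.0094 for Hoxa6 against NSG. The SD of Hoxa11 rose from 0.30 to 0.54 with a pseudocount of 0.1. The median log2 difference of all genes stayed within 0.033 of 0. Counts of all genes called moved more. Rag2-/- against WT gave 47 genes when WT replicate 2 was left out and 326 when NSG replicate 3 was, 165 under the block, 114 with all genes above 0 TPM, 355 with the 8 libraries alone and 420 without the size limit. Rag2-/- against NSG gave 4 genes when Rag2-/- replicate 3 was left out and 90 when replicate 4 was, 5 under the block, 60 with voom and 6 to 39 under the other settings. NSG against WT gave 0 to 2. The F test gave 7 genes without Rag2-/- replicate 2 and 382 without NSG replicate 3, and 78 under the block, 65 with all genes above 0 TPM, 63 without a trend, 74 with the further split and 276 with voom. The causes were not tested. Depth limits Hoxa11 most, at 4 to 12 estimated read pairs.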
